A study of Mus musculus with 8 samples.

Results

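The DNA methyltransferases and TET enzymes were followed in mouse embryonic stem (ES) cells expanded in culture from passage 6 to passage 16. The set held 9 genes chosen by symbol of the 23337 gene names in the deposited table: the de novo enzymes Dnmt3b and Dnmt3a with their cofactor Dnmt3l, the maintenance pair Dnmt1 and Uhrf1, the dioxygenases Tet1, Tet2 and Tet3, and the glycosylase Tdg. Dnmt3b was put first because it was selected on its lower level at passage 16 in every clone, so the passage values of all members are a description of these libraries and carry no test. The libraries were from 4 independent clones, numbered 6, 20, 30 and 36, each sequenced once at passage 6 and once at passage 16, 8 libraries in all. Both groups were wild-type 129S1 ES cells by their labels, derived from blastocysts with GFP in the Rosa26 locus and grown with LIF, and by these labels only the passage number differed. The study followed ES cells whose telomeres lengthen during culture, and the RNA comparison asked what else differs after that expansion. The methods describe cells of more than 1 strain without saying which were sequenced.

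In mammals, DNMT3A and DNMT3B place methyl groups on cytosines of unmethylated CpG sites, and the catalytically inactive DNMT3L binds and stimulates them. UHRF1 recognises hemimethylated DNA behind the replication fork and brings in DNMT1, which copies the mark to the new strand. TET enzymes oxidise 5-methylcytosine, and thymine DNA glycosylase, encoded by Tdg, removes the further oxidised bases so that base excision repair can restore cytosine. Mouse ES cells express both sets of enzymes at once and are known for losing methylation when grown in conditions that hold them close to the naive state.

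Read totals lay between 21394069 and 34295561 per library, and values are given as normalized read counts, the reads of a gene divided by 1 size factor per library. The ES cell identity of the libraries was checked on 7 marker genes, whose summed level ran from 82491 to 90214 at passage 6 and from 87099 to 89104 at passage 16. Markers of other cell types were also read. The summed level of 6 primitive endoderm markers ran from 2348 to 7704 at passage 6 and from 1757 to 6357 at passage 16, with none of the 6 at 0 in any library. That of 8 fibroblast markers ran from 3845 to 5894 and from 4443 to 5908, with Lum at 0 in at least 1 library and most of the sum in the collagen genes Col1a1 and Col1a2, while Dcn was between 9.48 and 60.9. Whether separate cells of these types were present was not tested. Transcripts of 4 Y-linked genes reached at most 2.67 in clone 6 and 9.48 in clone 36, whereas they were at least 115 in clone 20 and 267 in clone 30. These are bulk samples, in which fewer cells of a type and less RNA per cell cannot be told apart. Some rows stood out of order among 5080 names that share a stem with other names and differ in a following number. Between 128 and 218 neighbouring rows were affected per library, but 0 in clone 6 at passage 6. No member was among the 5080 names.

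Levels between genes were compared per kilobase of annotated exon. Uhrf1 was the most abundant at 4000 normalized reads per kb over the 8 libraries (range 3417 to 4846). Dnmt3l followed at 2682 (2027 to 5025), Dnmt3b at 2215 (1547 to 3050) and Dnmt1 at 1982 (1761 to 2236), and the ranges of neighbours in this order overlapped: Dnmt3b exceeded Dnmt1 in 5 of 8 libraries. Tet1 came next at 1011 (847 to 1367), and Dnmt3a, at 783 (639 to 915), was below Tet1 in each of the 8 libraries although their ranges over all libraries overlapped. Tet2 at 447, Tet3 at 66.4 and Tdg at 27.9 formed the lower end, and their ranges were apart from those of their neighbours in the order. The place of Tdg is uncertain, because its sequence is shared with other genes, as given below.

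**Figure D1:**
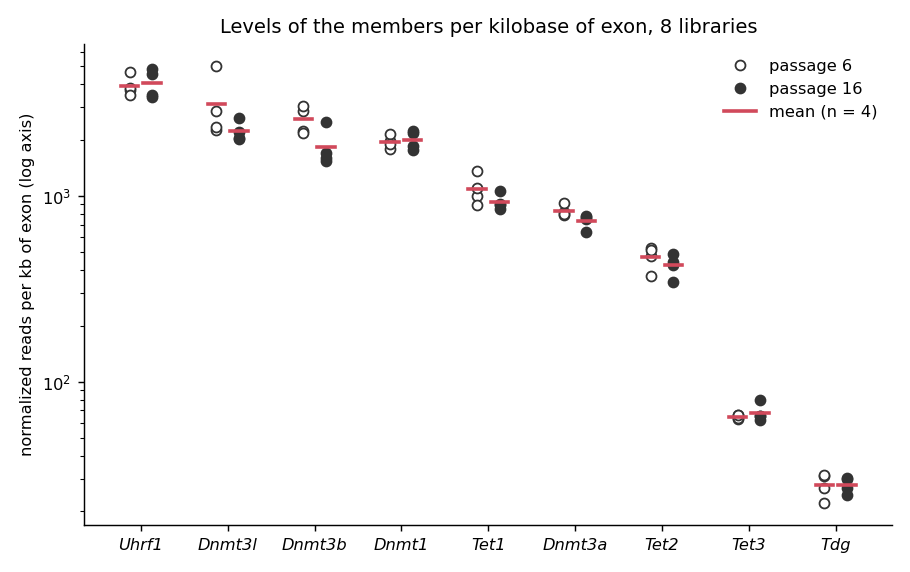
Normalized reads per kb of exon (log axis) of the 9 members, ordered by their mean over 8 libraries, with open points for passage 6, filled points for passage 16 and red bars for the mean of 4 clones. Uhrf1 is highest at 4000 and Tdg, whose counts are uncertain because of shared reads, is lowest at 27.9. The single high Dnmt3l point at 5025 is clone 20 at passage 6.

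Among the dioxygenases Tet1 therefore dominated, at between 1.88 and 2.62 times the level of Tet2 per kb. Tet2 exceeded Tet3 by between 5.34 and 7.89 times. Among the de novo enzymes Dnmt3b exceeded Dnmt3a per kb by between 2.13 and 3.82 times.

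Some counts are less certain than their depth implies, because the reads were 50 bases long and members share stretches of that length with copies elsewhere. Of the 50-base windows of the Tdg exons, 61.4% also occurred in exons of other annotated genes. The pseudogene Tdg-ps alone held 43.9% of the Tdg windows. The level of Tdg and its place below Tet3 thus depend on how shared reads were assigned. For Uhrf1 the share was 17.9%, mostly with Gm5648, and for Dnmt3b it was 11.5%, all with the adjacent paralog Dnmt3c. It was at most 0.50% for the other members. Exons of Dnmt3b, Dnmt3l and Tdg also overlap the spans, introns included, of Dnmt3bos, Aire and Glt8d2 on the other strand. Glt8d2 shared 8.53% of the Tdg windows, whereas Dnmt3bos and Aire shared no such window with Dnmt3b or Dnmt3l. Reads shared by Tdg and Glt8d2 cannot be told apart unless counted by strand. Whether they were is not stated in the sources used here.

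Dnmt3b lies on chromosome 2 (GRCm38, chr2:153649450-153687730, plus strand) and encodes the main de novo methyltransferase of the early epiblast. At passage 6 its normalized counts were 9738, 12340, 13195 and 9499 in clones 6, 20, 30 and 36. At passage 16 they were 7382, 6693, 10843 and 6961 in the same clones. Each clone was lower at passage 16, whereas the groups as a whole overlapped, because clone 30 at passage 16 remained above clones 6 and 36 at passage 6. The mean over the 4 clones was 11193 ± 1854 (SD) early and 7970 ± 1936 (SD) late. By clone, the log2 differences were −0.40, −0.88, −0.28 and −0.45, with a mean of −0.50 ± 0.26 (SD, n = 4). Without clone 20 the mean log2 difference was −0.38.

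Dnmt3l (chr10:78041947-78063622, plus strand) was the other member with a mean difference of more than 0.4 on the log2 scale, but most of it came from 1 library. Its normalized counts were 6060, 13416, 7666 and 6301 in clones 6, 20, 30 and 36 at passage 6. They were 5413, 5877, 7043 and 5504 at passage 16. Clone 20 at passage 6 held more than any other library, and the other 7 libraries lay between 5413 and 7666. Each clone was lower at passage 16, by 0.16, 1.19, 0.12 and 0.20 on the log2 scale, and the mean log2 difference of −0.42 ± 0.52 (SD, n = 4) became −0.16 without clone 20. The same library had the highest Tet1 count and the lowest summed level of 5 formative epiblast markers, 2772 against 3715 to 5400 in the other 7 libraries. The part of these markers in the Dnmt3l value was not tested.

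The last de novo gene, Dnmt3a (chr12:3806007-3914443, plus strand), differed less. Its normalized counts were 7802, 8128, 7918 and 9073 at passage 6 and 7727, 6337, 7659 and 7482 at passage 16, again in the order of clones 6, 20, 30 and 36. The passages did not overlap, yet the gap was narrow: the lowest passage 6 library stood at 7802 and the highest passage 16 library at 7727. The mean log2 difference was −0.17 ± 0.17 (SD, n = 4), with clones 6 and 30 at −0.01 and −0.05. Per kb, Dnmt3b was 3.14 ± 0.63 times Dnmt3a at passage 6, a ratio that was lower in 4 of 4 clones at passage 16, with a mean of 2.50 ± 0.51 (SD, n = 4).

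**Figure D2:**
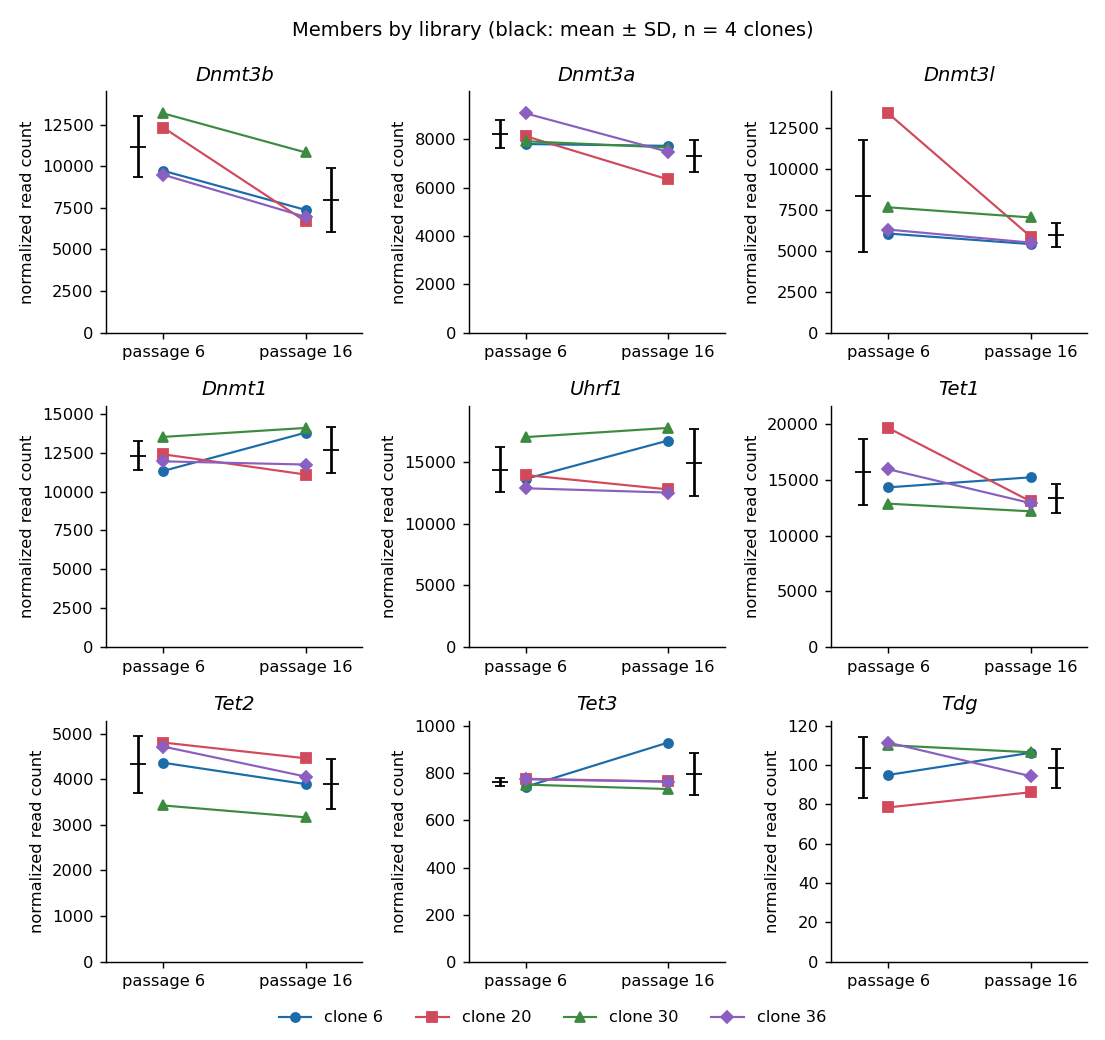
Normalized read count of each member (vertical axes from 0) at passage 6 and passage 16, with 1 coloured line per clone and the mean ± SD of 4 clones in black. All 4 lines slope down for Dnmt3b, Dnmt3a, Dnmt3l and Tet2, and the lines of Dnmt1, Uhrf1, Tet1, Tet3 and Tdg run in both directions.

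Promoter sequence is shown for the pair of de novo genes with the largest passage differences and for the maintenance pair, whose levels ran in parallel. Each run is the window from 250 bases before to 50 after a RefSeq transcript start (GRCm38.p6), 5′ to 3′ on the gene's strand, with the GC box GGGCGG and its reverse complement CCGCCC in capitals. For Dnmt1 and Uhrf1, the window with the most CpG sites is given.
Dnmt3b (chr2:153649199-153649498, plus): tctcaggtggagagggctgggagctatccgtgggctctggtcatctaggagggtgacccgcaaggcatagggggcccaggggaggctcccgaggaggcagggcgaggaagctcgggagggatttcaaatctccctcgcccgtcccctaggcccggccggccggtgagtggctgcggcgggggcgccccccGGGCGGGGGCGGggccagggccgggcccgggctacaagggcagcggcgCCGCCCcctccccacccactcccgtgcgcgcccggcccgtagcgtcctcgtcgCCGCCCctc
Dnmt3l, first start (chr10:78042037-78042336, plus): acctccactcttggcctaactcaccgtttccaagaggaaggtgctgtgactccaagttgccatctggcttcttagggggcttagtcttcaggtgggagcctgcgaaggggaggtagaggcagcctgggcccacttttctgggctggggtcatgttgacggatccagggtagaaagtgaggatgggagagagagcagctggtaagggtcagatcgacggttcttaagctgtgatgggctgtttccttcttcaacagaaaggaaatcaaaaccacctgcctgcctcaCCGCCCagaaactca
Dnmt3l, second start (chr10:78049592-78049891, plus): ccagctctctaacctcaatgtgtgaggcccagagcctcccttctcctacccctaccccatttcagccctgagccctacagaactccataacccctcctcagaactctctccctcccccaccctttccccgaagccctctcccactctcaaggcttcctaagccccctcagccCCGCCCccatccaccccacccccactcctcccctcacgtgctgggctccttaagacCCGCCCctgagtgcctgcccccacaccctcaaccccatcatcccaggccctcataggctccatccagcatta
Dnmt1, most downstream start (chr9:20952574-20952873, minus): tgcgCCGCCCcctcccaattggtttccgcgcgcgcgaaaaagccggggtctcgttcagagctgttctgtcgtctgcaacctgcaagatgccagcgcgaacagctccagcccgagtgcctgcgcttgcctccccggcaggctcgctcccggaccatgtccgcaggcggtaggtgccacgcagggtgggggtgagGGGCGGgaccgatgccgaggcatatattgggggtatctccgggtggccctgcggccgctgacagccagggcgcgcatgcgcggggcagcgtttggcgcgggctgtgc
Uhrf1, second start (chr17:56304063-56304362, plus): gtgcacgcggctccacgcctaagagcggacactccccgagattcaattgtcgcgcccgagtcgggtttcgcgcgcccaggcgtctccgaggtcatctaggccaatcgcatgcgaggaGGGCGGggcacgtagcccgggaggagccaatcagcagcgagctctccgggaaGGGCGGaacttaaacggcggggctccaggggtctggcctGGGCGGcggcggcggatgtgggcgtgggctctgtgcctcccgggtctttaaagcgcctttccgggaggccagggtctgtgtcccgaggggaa

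The Dnmt3b window held 30 CpG sites and 4 GC boxes, and 89.4% of 32851 mouse promoter windows of 300 bases held no more CpG sites than that. The 2 Dnmt3l windows held 6 and 4 CpG sites with 1 and 2 GC boxes, and the window of the remaining Dnmt3l start held 3 CpG sites and no GC box. The median window held 7 CpG sites, and 35.7% of all windows held at least 1 GC box on either strand. The Dnmt3b and Dnmt3l windows thus differed in composition. The printed windows of Dnmt1 and Uhrf1 held 33 CpG sites each, with 2 and 3 GC boxes. A letter match describes the sequence and is not a binding site.

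For the maintenance enzymes the 2 passages overlapped and the clones went both ways. Dnmt1 (chr9:20907209-20959888, minus strand), the copying methyltransferase, had normalized counts of 11326, 12397, 13515 and 11943 at passage 6 and 13786, 11095, 14090 and 11738 at passage 16. It was higher at passage 16 in clones 6 and 30 and lower in clones 20 and 36, with a mean log2 difference of 0.04 ± 0.19 (SD, n = 4). Uhrf1 (chr17:56303321-56323486, plus strand), its recruiter, had counts of 13643, 13952, 17028 and 12879 at passage 6. At passage 16 it had 16749, 12788, 17770 and 12531, a mean log2 difference of 0.05 ± 0.18 (SD, n = 4) with the same signs as Dnmt1 in each clone. The ratio of Uhrf1 to Dnmt1 per kb was 2.01 ± 0.14 at passage 6 and 2.02 ± 0.14 at passage 16 (SD, n = 4).

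Relative to Dnmt1, Dnmt3b separated the passages. The ratio of Dnmt3b to Dnmt1 per kb was 1.25, 1.45, 1.42 and 1.16 at passage 6 in clones 6, 20, 30 and 36, and 0.78, 0.88, 1.12 and 0.86 at passage 16. Every passage 6 library thus had more Dnmt3b than Dnmt1 per kb, and at passage 16 this held for clone 30 alone. The ratios of Dnmt3b to Dnmt3a, Dnmt3l and Tet1 per kb overlapped between the passages. At passage 16 the ratio to Dnmt3l was lower in 3 of 4 clones, and those to Dnmt3a and Tet1 in 4 of 4. Since Dnmt3b was selected on this contrast, these ratios are a description too.

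Dnmt1 and Uhrf1 had Pearson's r = 0.94 over the 8 libraries on the log2 scale, and 114 of 9443 names with a mean of at least 100 were more like Dnmt1 than Uhrf1 was. The 8 points come from 4 clones and are not independent. Both genes were highest in clone 30 at either passage and in clone 6 at passage 16, the 3 libraries with the lowest summed level of primitive endoderm markers, 2348, 1757 and 2620. They were lowest in libraries where that sum was 3985 or more. Over the same libraries r with the summed markers was −0.93 for Uhrf1 and −0.85 for Dnmt1. The part of primitive endoderm-like cells in the levels of the maintenance genes was not tested.

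**Figure D3:**
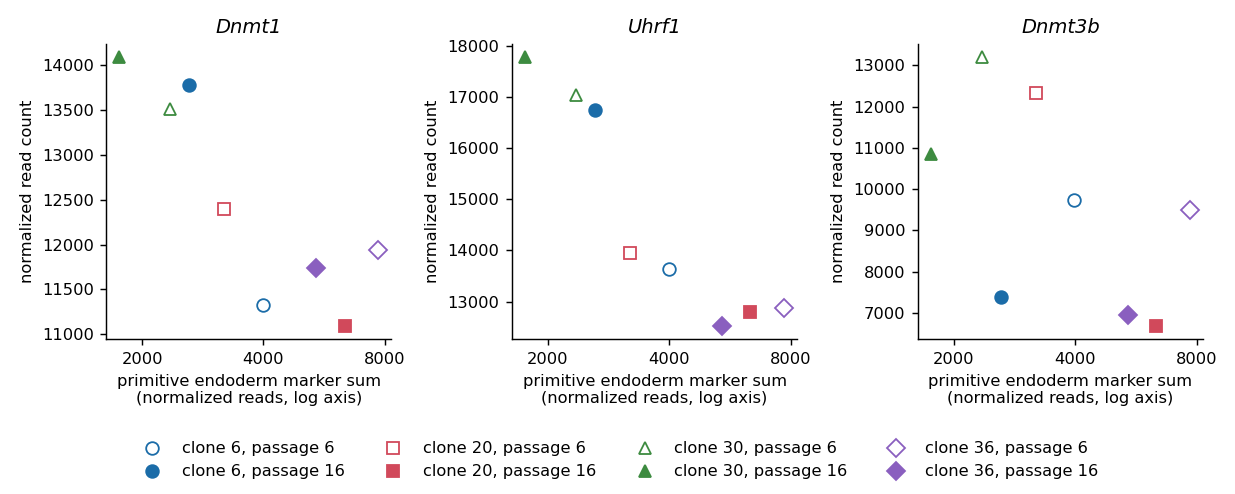
Normalized read count of Dnmt1, Uhrf1 and Dnmt3b in each library against the summed normalized reads of 6 primitive endoderm markers (log axis), with colour and shape for the clone, open symbols for passage 6 and filled symbols for passage 16. The 3 libraries with the lowest marker sums, from 1757 to 2620, have the 3 highest Dnmt1 and Uhrf1 counts, whereas clone 6 at passage 16 is among the 3 with the lowest marker sums and has a low Dnmt3b count of 7382.

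Over all 4 clones the demethylation enzymes had no shared direction. In clones 20, 30 and 36, Tet1, Tet2 and Tet3 were each lower at passage 16, Tet3 by at most 0.04 in log2. Tet1 (chr10:62804570-62908996, minus strand), the most abundant dioxygenase of these cells, had counts of 14330, 19659, 12867 and 15959 at passage 6 and 15230, 13077, 12180 and 12919 at passage 16. It was lower at passage 16 in 3 of 4 clones, clone 6 being the exception, with a mean log2 difference of −0.22 ± 0.29 (SD, n = 4) that became −0.10 without clone 20. Tet2 (chr3:133463679-133545139, minus strand) had 4360, 4803, 3424 and 4715 at passage 6 and 3893, 4459, 3164 and 4058 at passage 16. Its log2 differences of −0.16, −0.11, −0.11 and −0.22 were the most even among the members, with a mean of −0.15 ± 0.05 (SD, n = 4). Clone levels of Tet2 lay further apart than that, so a mean difference that left out 1 library of clone 30 was −0.26 or −0.05. The order of the 4 clones was the same at both passages for Tet2 and for no other member, with clone 30 lowest and clone 20 highest.

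Tet3 (chr6:83362373-83459084, minus strand) was nearly level across 7 libraries. Its counts were 743, 777, 752 and 775 at passage 6 and 931, 765, 733 and 764 at passage 16. Only clone 6 at passage 16 was apart from the rest, with a log2 difference of 0.32 against −0.02, −0.04 and −0.02 in clones 20, 30 and 36. In that clone the 388 names on chromosome 6 had a median log2 difference of 0.28 above that of all names, and 84.3% of them lay above that median of all names. The next largest of the 80 medians, 1 per chromosome and clone, was that of the X chromosome in clone 6, 0.09 in size. Within chromosome 6, 172 names had a larger difference in clone 6 than Tet3. The part of the whole-chromosome shift in the Tet3 value was not tested. No other member lies on chromosome 6, and the medians of the other members' chromosomes were at most 0.06 in size in any clone.

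**Figure D4:**
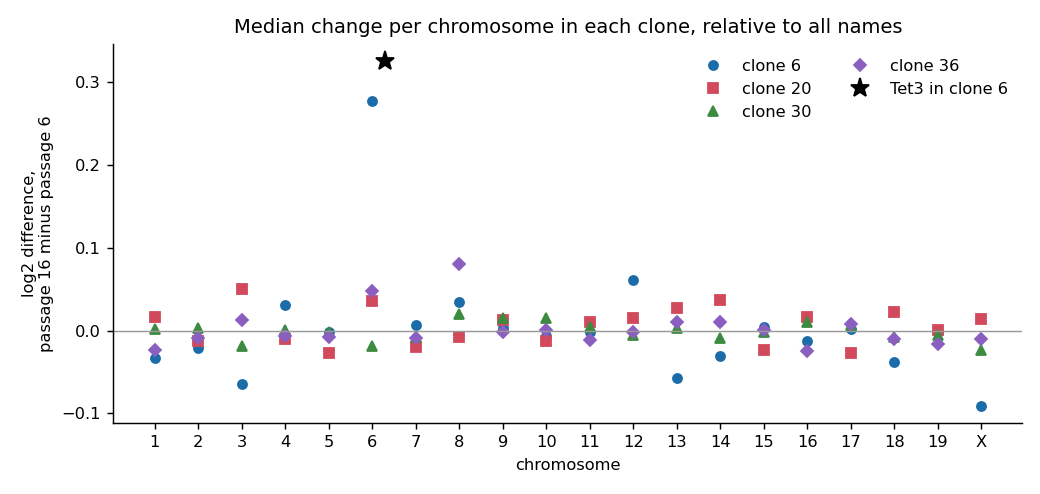
Median log2 difference between passages of the names on each chromosome (horizontal axis), less that of all names, with 1 symbol per clone, and Tet3 in clone 6 on the same scale as a star. Chromosome 6 in clone 6 is at 0.28 and Tet3 at 0.33, and the largest of the other medians is 0.09 in size.

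Tdg (chr10:82629828-82650799, plus strand) had counts of 94.9, 78.4, 110 and 111 at passage 6 and 106, 86.1, 106 and 94.3 at passage 16. It was higher at passage 16 in clones 6 and 20 and lower in clones 30 and 36, and the mean log2 difference was 0.00 ± 0.18 (SD, n = 4). These counts carry the uncertainty of shared reads given above.

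**Figure D5:**
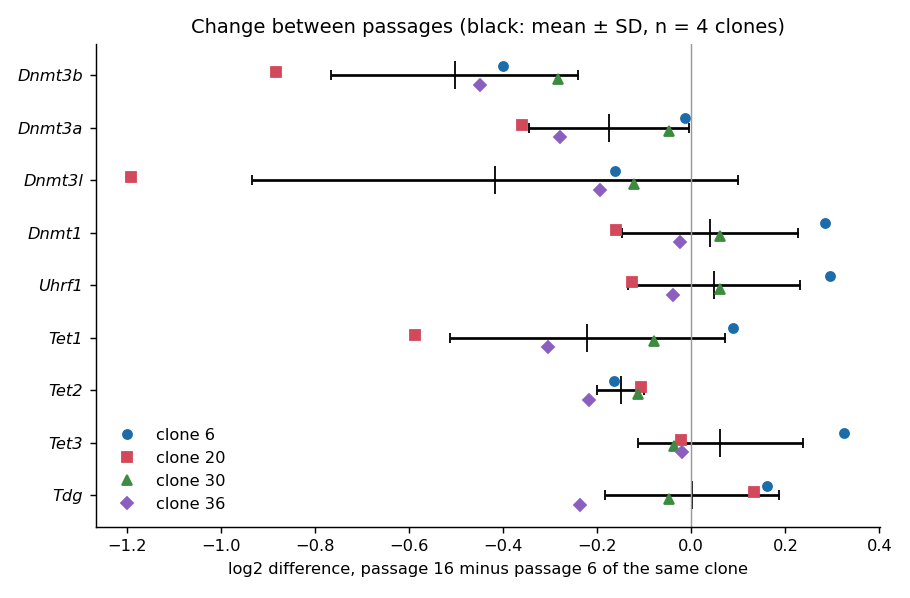
Log2 difference between passage 16 and passage 6 of the same clone for each member (horizontal axis), with 1 symbol per clone and the mean ± SD of 4 clones in black. Dnmt3b has a mean of −0.50 with every clone below 0, the wide bar of Dnmt3l comes from clone 20 at −1.19, and Dnmt1 and Uhrf1 lie on both sides of 0.

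Dnmt3b, Dnmt3a, Dnmt3l and Tet2, 4 of the 9 members, were thus lower at passage 16 in every clone, as were 9.14% of the 12283 names tested, and none was higher in every clone, as were 8.14%. For Dnmt3a all passage 16 libraries were below all passage 6 libraries, as for 1.16% of names. Because this contrast chose the members, nothing is read from these counts. In the limma test of passage 16 against passage 6, 0 of 9 members and 0% of all names passed an adjusted p of 0.05, against 436 names at an unadjusted p under 0.05. edgeR and DESeq2 without pairing also called 0 names, with 441 and 485 at an unadjusted p under 0.05. When DESeq2 was given the clone as a block it called 0.236% of names, 29 in all, among them 1 member, Dnmt3b. The limma and edgeR fits with the same block called 0, with 942 and 933 names at an unadjusted p under 0.05.

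Differences between clones were not used in choosing the members and could be tested. In limma's F-test of the 4 clones with passage as a term, 0.505% of names passed an adjusted p of 0.05. Of the 9 members 0 did. At an unadjusted p under 0.05 there were 3 members, beside 1737 of the 12283 names tested. Tet2 came closest, with an adjusted p of 0.086: the mean of its 2 libraries was 3294 in clone 30 and 4631 in clone 20, a ratio of 1.41. The summed primitive endoderm markers ran with Tet2 (r = 0.77 over the 8 libraries), and their part in its difference between clones was not tested. For Uhrf1 the ratio of the highest clone, 30, to the lowest, 36, was 1.37 (adjusted p = 0.25). For Dnmt3b the same clones were highest and lowest, with a ratio of 1.46 (adjusted p = 0.27). The adjusted p of the other 6 members lay between 0.44 and 0.78. By DESeq2's likelihood ratio test, which called 5.69% of names, these 3 members passed, with adjusted p of 5.3e-05 for Tet2, 0.020 for Uhrf1 and 0.013 for Dnmt3b. With either or both libraries of clone 20 removed, Dnmt3b also passed limma's F-test, and so did Dnmt3l without clone 20 at passage 16 (adjusted p = 0.016). Removing 1 library leaves that clone with a single one, which is assumed to vary like the others. Over its 21 alternative fits the adjusted p of Dnmt3b ran from 0.013 to 0.96, and that of Tet2 from 5.3e-05 to 0.93.

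The genes around the members were described by 7 lists of 116 genes, of which 101 could be tested. In the limma passage test 0 of the 101 passed in either direction, and the median log2 difference of all 12283 names was −0.00. Among 11 tested partners of maintenance methylation the median was 0.03, with 9 higher and 2 lower. Dppa3, which keeps UHRF1 away from chromatin, had counts of 333 ± 77.0 and 376 ± 50.5 (SD, n = 4), and Cdca7l 979 ± 201 and 1080 ± 164. Among 7 methyl-CpG readers the median was −0.05, with the largest difference in size for Mbd3 at −0.10.

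Of 16 genes that recruit de novo methylation or place its histone marks, 5 were lower in every clone and 0 higher, beside 9.14% and 8.14% of all names, with a median of −0.05. Zfp445, a zinc finger protein that protects imprinted methylation, had counts of 3490, 4448, 3367 and 4172 at passage 6 and 2774, 3669, 2697 and 3455 at passage 16. Its log2 difference was nearly the same in each clone, −0.30 ± 0.03 (SD, n = 4). Mga, a subunit of the PRC1.6 complex that represses germline genes, averaged 9335 ± 1097 and 7873 ± 1209 (SD, n = 4). Both also ran lowest in clone 30, as Tet2 did. Both were among the 29 names that DESeq2 called with the clone as a block.

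The 20 tested TET partners and base excision repair genes had a median of 0.01. This list held the 1 listed gene that passed the limma F-test between clones, Gadd45g, a stress-response gene linked to active demethylation (adjusted p = 0.028). Its counts were 1214 and 894 in clone 30 at passages 6 and 16, and between 407 and 641 in the other clones. The call was lost in 8 of 21 alternatives, among them the fits without any 1 library of clone 30 or clone 36, and its adjusted p ran up to 0.92. By the mean of its 2 libraries, clone 30 was also the highest for Uhrf1, Dnmt3b, Dnmt1 and Tdg and the lowest for Tet1, Tet2 and Tet3. No member passed that F-test. Slc23a1, a vitamin C transporter with the largest passage difference of the list, was lower in 4 of 4 clones, by −0.60 ± 0.38 (SD, n = 4) on the log2 scale. The 17 tested genes of the S-adenosylmethionine cycle, which supplies the methyl donor, had a median of −0.03, with the largest differences for Mat1a and Gnmt, both under 43 normalized reads in every library.

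Among 15 tested upstream regulators of Dnmt3b the median was 0.03, with 5 higher and 3 lower in every clone, beside 8.14% and 9.14% of all names. Klf4, a naive pluripotency factor, was 4651, 4350, 4970 and 5283 at passage 6 and 6549, 5636, 5586 and 5546 at passage 16. Nanog, another core factor, was between 6636 and 7855 at passage 6 and between 8019 and 9071 at passage 16, so that for both genes all passage 16 libraries were above all passage 6 libraries, as for 1.21% of names. Lin28a, an RNA-binding protein that blocks let-7 maturation, was lower in every clone, from 14721 ± 2141 to 11847 ± 2081 (SD, n = 4). Of these 3 only Nanog was among the names that DESeq2 called with the clone as a block. Its highest count, 9071, was clone 6 at passage 16, the library of the chromosome 6 shift. The part of that shift in Nanog was not tested. Prdm14 and Zfp281 were in the groups with displaced rows and were not tested.

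The germline genes known to be silenced by promoter methylation had a median of −0.06 over 15 tested, with 7 higher and 8 lower. Asz1, a germ cell protein of the piRNA pathway, was 212, 189, 144 and 178 at passage 6 and 423, 237, 257 and 313 at passage 16. Brdt, a testis bromodomain protein, averaged 143 ± 17.7 early and 191 ± 15.3 late (SD over 4 clones). They were the pair with the largest differences of their list. Both were higher in 4 of 4 clones, as were 8.14% of all names, with every passage 16 library above every passage 6 library, as for 1.21%, and neither passed the passage test.

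The names whose pattern over the 8 libraries was most like that of Dnmt3b, among 9443 with a mean of at least 100, were Nudt5, Maea, Fastkd3, G6pdx and Pwp2, with r from 0.98 down to 0.95. Those running opposite were Ccdc53, Elovl5, Grhl3, Sccpdh and Gjc1, with r from −0.95 to −0.93. Dnmt3l had r = 0.73 with Dnmt3b and Dnmt3a 0.55, so that 423 and 1356 names were more like Dnmt3b than they were. For Dnmt1, Uhrf1, Tet1, Tet2 and Tet3 r with Dnmt3b was 0.43, 0.46, 0.26, −0.24 and −0.40. These values describe 8 libraries that share 4 clones.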

How the data were processed

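RNA was sequenced from 8 libraries, 4 ES cell clones at passages 6 and 16. Per the methods and the submitters' processing notes, poly(A)+ RNA was read as 50-base single ends with a stranded kit, aligned to GRCm38/mm10 with TopHat2 (2.0.10) and Bowtie (1.0.0), handled with SAMtools (0.1.19), counted with HTSeq (0.5.3p9) and normalized with DESeq2. What the authors deposited is a signal, read counts over a library's size factor. Whole reads were recovered for 100% of values in each library (tolerance 0.001), and the table held 23337 names. The members and gene lists were chosen with earlier results of these data known.

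Some rows of names in number-continued groups were out of order, so the 12283 names outside such groups with a mean of at least 10 were tested. The passage test was limma (3.58.1, R 4.3.3, with a trend) on log2(normalized count + 1) with no term for the clone. It was two-sided, with a Benjamini-Hochberg adjusted p of 0.05 as threshold, and fold changes on this scale understate changes of low genes. Clones were compared with limma's moderated F-test with passage as a term. edgeR (4.0.16) and DESeq2 (1.42.0) on recovered reads, a clone block, other pseudocounts, filters and scaling, the whole table, and fits without each library or clone were alternatives. Tests were tried on simulated data. Clone numbers in the labels pair the libraries as passages of 1 cell line. Deviations from passage means correlated within a clone at 0.10, 0.27, 0.70 and 0.43 for clones 6, 20, 30 and 36, and clone 6 at passage 6 correlated more, at 0.28, with clone 36 at passage 16. The p-values measure the spread between these libraries. Depth, from 21394069 to 34295561 reads, left every member with at least 78.4 normalized reads. Libraries differed by a chi-square per degree of freedom of at least 7.65, so none was a repeat.

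Genes were named by rule. All members were named, and from each list of genes around them those past the threshold, or otherwise the 2 largest passage differences. The 5 most and 5 least like Dnmt3b over 8 libraries by Pearson's r were named too. Klf4 and Nanog had the 2 largest passage differences of the ES cell markers. In the other marker lists, which were read mainly as sums, not all genes of this kind were named. A listed gene that the rule would name is not reported here. Slc23a1, Aire, Glt8d2 and similar neighbours, and Prdm14 and Zfp281, were named after their values or positions were seen. Exon lengths and shared 50-base windows came from the GENCODE vM21 annotation, promoter windows from RefSeq (GRCm38.p6, all 9 members matched, 16 windows), and the chromosomes of 8454 names with a mean of at least 100 from RefSeq symbols.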

Additional observations from a re-analysis of the deposited data

Results flagged for a closer look

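Within groups of 4, 3 of 27 member values had 1 sample far from the others on the log2 scale. Chance gives about 1 in 20 for independent values, but these 27 share the same 4 clones. No excess is therefore read from this count. The Dnmt3a level at passage 16 was lowest in clone 20, at 6337 against 7482 to 7727 in the other clones, a gap of 0.837 of the whole range in log2 values. For the change of Dnmt3l between passages, clone 20 was at −1.19 on the log2 scale against −0.20 to −0.12, a gap of 0.932 of the range. For the change of Tet3, clone 6 was at 0.32 against −0.04 to −0.02, a gap of 0.951 of the range.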

How the results depend on the processing

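Because the contrast between passages chose the members, the signs given here are a description of the same libraries. Under 23 alternatives Dnmt3b stayed lower at passage 16. Its log2 difference lay between −0.50 and −0.49 under other tools, filters and scalings. Without 1 library or clone it lay between −0.66 and −0.38. Dnmt3a, Dnmt3l, Tet1 and Tet2 also kept their sign, at −0.23 to −0.11, −0.55 to −0.16, −0.32 to −0.10 and −0.26 to −0.05 without 1 library or clone, whereas Dnmt1, Uhrf1, Tet3 and Tdg changed sign in 3, 4, 2 and 10 fits.

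The passage count of 0 names became 29 with the replicate block in DESeq2, including 1 member and 3 listed genes. Over the whole table it became 1, Sox18, from the groups with displaced rows. The blocked limma and edgeR fits gave 0. Leaving out any 1 library or clone gave 0.

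The clone count of 62 names became 699 with DESeq2, with 3 members and 12 listed genes, 21 without a passage term and 20 over the whole table, both with 0 listed genes. Without a library or clone it ran from 6 to 229, with 0 to 2 members and 0 to 5 listed genes: 6 without clone 30 and 229 without clone 6, which then called Tet2. The cause was not tested. Lengths of the longest coding transcript in place of the exon union kept all 9 members in the same order. With those lengths Dnmt3l, at 3930 per kb, came close to Uhrf1 at 4090, so the gap between this pair depends on the length used. Tdg could not be fitted at a minimum mean of 100, as its mean is lower.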
